A study of Mus musculus with 8 samples.

Results

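The 33 genes described here encode the enzymes that build cholesterol and fatty acids and the proteins that set how strongly those enzymes are transcribed, and they were measured in CD11b+ brain cells of CSF1 OE mice and their controls. They were chosen by name from genes linked to the sterol regulatory element binding proteins (SREBPs), by a rule that uses no measured value, although earlier results of these data were known when the choice was made. All 33 were among the 20308 genes in the files, and all 33 were among the 13407 genes with enough reads to be tested.

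CSF1 OE mice carry a transgene under a tetracycline-responsive element, which a tTA driver turns on in a subset of GFAP+ cells, so that these cells make a secreted form of the cytokine CSF1 in the brain. Which of these transgenes, if any, the controls carried is not given in the sources used here. Controls and CSF1 OE mice were F1 animals of C57Bl/6 and CD1, aged 14 or 15 days. Cells were pulled from the right hemisphere with CD11b-conjugated magnetic beads after Percoll removal of myelin, and 4 control mice (numbers 1827, 1872, 1874 and 1934) and 4 CSF1 OE mice (1931, 1932, 1936 and 2019) gave 1 library each, with totals from 12053280 to 15475488 expected counts. CD11b marks microglia, the resident myeloid cells of the brain, and other cells of that lineage. The markers of microglia were abundant, with Csf1r, the CSF1 receptor, between 6563 and 12128 counts scaled to a common library size (CPM, the unit used throughout) in every mouse. Csf1 itself was 364, 310.1, 139 and 317 CPM in control mice and 388, 400.1, 333 and 167 CPM in CSF1 OE mice, giving a log2 fold change of 0.19 (SE 0.33; adjusted p = 0.796 by edgeR's quasi-likelihood test), so these libraries do not separate by Csf1 message. Markers of other cells were also present in every library, as given below, and in such bulk samples fewer cells of a type and less RNA per cell cannot be told apart.

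Cholesterol is made from acetyl-CoA by way of mevalonate, isoprenoid diphosphates, squalene and lanosterol. Fatty acids are made from the same precursor by carboxylation, chain building, elongation and desaturation. SREBP precursors sit in the endoplasmic reticulum bound to SCAP. When sterols are low, SCAP escorts them to the Golgi, where they are cut and freed to enter the nucleus, and when sterols are plentiful the INSIG proteins hold SCAP back. In the developing brain cholesterol is made locally, since plasma cholesterol hardly crosses the blood-brain barrier, and myelinating oligodendrocytes are known for a high rate of its synthesis.

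The proximal promoters of classical SREBP target genes are known to combine an SREBP site with neighbouring sites for NF-Y or Sp1, which need not hold for every gene here. Promoter windows from RefSeq (GRCm38.p6, 250 bases before to 50 bases after each start) were given for 26 of the 33 genes. The other 7 are Fdft1, Fdps, Sqle, Scd1, Scd2, Stard4 and Fads1. CCAAT, the core of an NF-Y site, was in a window of 21 of the 26 genes on either strand, while 41.1% of all 27025 genes with a window held it. This background includes genes with too few reads to be tested here, whereas all 33 were tested. The motif shares are therefore not matched for expression. GGGCGG, an Sp1 box, was in 20 of 26, against 38.2% of all genes. Both motifs were in the windows of 17 of 26, against 15.8% of all genes. One classical SREBP site, TCACNCCAC, was found in 1 of 26, Hmgcs1, against 1.44% of all genes. The 250 bases before the start are printed for 4 genes. Hmgcs1 (the cytosolic HMG-CoA synthase) is shown for its SREBP site and its spread, as its highest CPM among the 8 mice was 2.30 times its lowest. Nsdhl (a dehydrogenase that removes methyl groups from the sterol ring) and Fasn (fatty acid synthase) had narrower ranges, 1.64-fold and 1.68-fold. As in Hmgcs1, mouse 1934 was their highest control and mouse 2019 their lowest CSF1 OE mouse. The lowest of all 8 was mouse 2019 for Nsdhl and control mouse 1872 for Fasn. Acly (ATP citrate lyase), with a range of 1.46-fold, had the lowest p of the 33. Capitals mark the motifs on either strand (CCAAT reads ATTGG and GGGCGG reads CCGCCC on the other strand), and the longer run in capitals in Hmgcs1 is TCACCCCAC. A CCAAT and an ATTGG overlap in Fasn.
Hmgcs1, chr13:119690101-119690350, plus strand: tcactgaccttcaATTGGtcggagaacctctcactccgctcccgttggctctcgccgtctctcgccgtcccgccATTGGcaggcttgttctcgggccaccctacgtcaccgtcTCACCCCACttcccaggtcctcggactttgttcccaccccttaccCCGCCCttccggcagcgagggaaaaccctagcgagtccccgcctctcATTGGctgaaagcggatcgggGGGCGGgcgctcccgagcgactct
Nsdhl, chrX:72918271-72918520, plus strand: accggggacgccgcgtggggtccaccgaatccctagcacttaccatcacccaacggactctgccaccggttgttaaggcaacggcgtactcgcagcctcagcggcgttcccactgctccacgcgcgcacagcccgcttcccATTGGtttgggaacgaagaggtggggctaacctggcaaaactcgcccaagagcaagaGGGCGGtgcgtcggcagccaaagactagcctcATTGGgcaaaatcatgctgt
Fasn, chr11:120824548-120824797, minus strand: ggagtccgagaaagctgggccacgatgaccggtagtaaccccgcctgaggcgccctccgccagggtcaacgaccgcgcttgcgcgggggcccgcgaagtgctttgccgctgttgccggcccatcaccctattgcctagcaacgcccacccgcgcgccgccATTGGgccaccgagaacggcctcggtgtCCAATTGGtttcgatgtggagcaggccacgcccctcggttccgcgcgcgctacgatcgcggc
Acly, chr11:100528001-100528250, minus strand: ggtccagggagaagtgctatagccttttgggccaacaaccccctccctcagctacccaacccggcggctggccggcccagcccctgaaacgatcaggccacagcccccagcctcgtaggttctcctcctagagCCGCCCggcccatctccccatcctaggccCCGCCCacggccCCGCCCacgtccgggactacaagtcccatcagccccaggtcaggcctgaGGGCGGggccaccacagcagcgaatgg
Within these 250 bases the Hmgcs1 promoter held 3 CCAAT motifs, 2 GGGCGG motifs and the SREBP site, whereas that of Acly held 4 GGGCGG motifs and no CCAAT, its single CCAAT lying after the start. These matches are letters in a window and say nothing of binding in these cells.

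None of the 33 genes was called between genotypes, and for 17 of them a difference of the size the study used to call a gene could not be set aside. A gene was called where the adjusted p of edgeR's quasi-likelihood test was under 0.05 and the fold change was below 0.7 or above 1.43, and 59 of all genes tested met this rule (0.440%). With so low a share among all genes, 0 of 33 does not set these genes apart. At an unadjusted p under 0.05 there was 1 member, Acly, against 16.5% of all genes. DESeq2 likewise called 0 of the 33 by the same rule (2.56% of all genes in that fit), with 1 member (Acly) at an unadjusted p under 0.05 (14.9%). The median log2 fold change of the 33 genes was 0.06 and that of all genes tested was -0.03. Of the 33, 22 had a higher mean in CSF1 OE mice, whereas 44.8% of all genes tested did. Neither the split nor the median is stable, since with single mice left out the count lay between 13 (without mouse 1936) and 30 (without mouse 1934) of 33 and the median between -0.052 and 0.20 for the same mice. Without mouse 1872 the median was also below 0, at -0.026.

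In 16 of the 33 genes the 95% interval of the log2 fold change lay wholly inside the study's fold limits, against 44.4% of all genes tested. For those 16 a difference as large as the limits is outside the interval, and for the other 17 the interval reaches past a limit, so that such a difference could neither be shown nor set aside with 4 mice per genotype. The intervals were narrowest for Scap (-0.33 to 0.05), Acly (0.10 to 0.53) and Ebp (-0.15 to 0.32), and widest for Elovl6 (-1.15 to 0.38), Scd1 (-0.47 to 0.90) and Fads2 (-0.66 to 0.71). Counts were ample in both sets. Each library held at least 127 for Fads2, 165 for Elovl6 and 174 for Scd1, and at least 466 for Ebp. The lowest count of any member in any library was 73, for Tm7sf2.

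**Figure D1:**
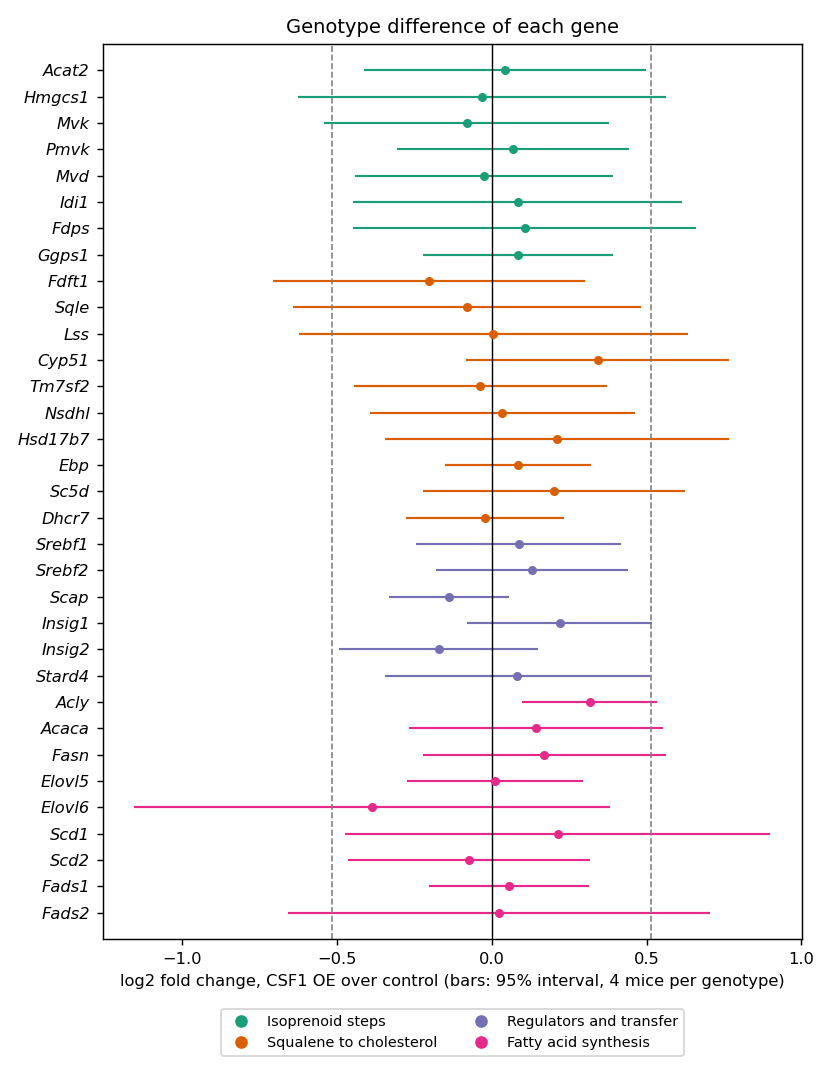
Log2 fold change of CSF1 OE over control for each of the 33 genes (points) with its 95% interval (bars, edgeR, 4 mice per genotype), grouped and coloured by role; dashed lines mark the fold limits of 0.7 and 1.43. The interval of Acly alone lies to the right of 0, and those of 16 genes lie inside the dashed lines.

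Levels per length of exon show which of these genes the cells carried most of. Scd2, 1 of the stearoyl-CoA desaturases that put the first double bond into a saturated fatty acid, was highest in control mice at 153 CPM per kilobase, followed by Insig1 at 61.4, Hmgcs1 at 56.6, Acly at 48.6 and Fads1 at 38.0. The same 5 genes led in CSF1 OE mice, although there Acly (60.5) stood above Hmgcs1 (55.3). The lowest in control mice were Hsd17b7 (3.17), Lss (3.07), Acaca (2.96) and Tm7sf2 (2.10), all in CPM per kilobase. These ranks depend on the exon union taken as length, which was 17074 bases for Acaca and 10787 bases for Lss. The annotation behind the counts is not known. Scd1 was at 4.26 in control and 4.93 in CSF1 OE mice, so that Scd2 was 35.9-fold and 29.4-fold higher than its paralog. The longest transcripts of Scd1 and Scd2 share 318 words of 25 bases, 6.63% of those in Scd1. RSEM divides reads that match both genes. How many reads did so was not examined, so the effect on the level of Scd1 is not known. No such word was shared between Insig1 and Insig2, Srebf1 and Srebf2, Fads1 and Fads2, or Elovl5 and Elovl6.

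The first group makes isoprenoid diphosphates from acetyl-CoA. Its 8 genes had log2 fold changes between -0.08 and 0.11, with a median of 0.06, and none had an unadjusted p under 0.05. Hmgcs1, which condenses acetoacetyl-CoA with acetyl-CoA, was 216, 185, 249 and 390.4 CPM in control mice 1827, 1872, 1874 and 1934, and 231, 304, 313 and 169.5 CPM in CSF1 OE mice 1931, 1932, 1936 and 2019. A control had the highest value and a CSF1 OE mouse the lowest, the genotypes overlapped throughout, and the log2 fold change was -0.03 (95% interval -0.63 to 0.56). Hmgcs1 is among the genes shown mouse by mouse because of this spread, a choice made after the values were seen.

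Fdps, the farnesyl diphosphate synthase, had the same mice at its extremes, with 41.5, 33.1, 40.2 and 64.0 CPM in control mice and 44.3, 53.9, 62.4 and 31.7 CPM in CSF1 OE mice (log2 fold change 0.11, SE 0.25). Pmvk, the phosphomevalonate kinase, was 11.96, 13.1, 13.9 and 17.5 CPM in control and 14.5, 16.02, 17.0 and 11.7 CPM in CSF1 OE mice (0.07, SE 0.17). Mvk, the mevalonate kinase, was 15.1, 14.5, 14.8 and 18.6 CPM in control and 14.5, 14.9, 20.2 and 9.91 CPM in CSF1 OE mice (-0.08, SE 0.20). In all of these the control mouse 1934 was the highest control and mouse 2019 the lowest CSF1 OE mouse. The same held for Acat2 (acetoacetyl-CoA formation; log2 fold change 0.04), Mvd (mevalonate diphosphate decarboxylase; -0.03) and Idi1 (isopentenyl diphosphate isomerase; 0.08).

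Ggps1, which makes the geranylgeranyl diphosphate used to modify small GTPases and so leads away from sterols, was the exception in this group. It was 23.1, 25.2, 29.5 and 24.2 CPM in control mice and 28.0, 21.5, 27.1 and 31.7 CPM in CSF1 OE mice, giving a log2 fold change of 0.09 (SE 0.14). Mouse 2019 was here the highest of all 8, and mouse 1934 was not the highest control. Ggps1 shares 5.44% of its exon bases with Arid4b on the opposite strand, and the library kit does not mark strand.

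The second group turns farnesyl diphosphate into squalene, lanosterol and cholesterol. Its 10 genes had log2 fold changes from -0.20 to 0.34, with a median of 0.02. Cyp51, which removes a methyl group from lanosterol, had the largest difference, with 93.5, 73.5, 102 and 128 CPM in control mice and 137, 114, 154 and 97.8 CPM in CSF1 OE mice. Of the CSF1 OE mice 1931 and 1936 lay above every control, while 1932 and 2019 lay within the control range, and the log2 fold change was 0.34 (SE 0.19; 95% interval -0.08 to 0.77; adjusted p = 0.397 by edgeR). Over the other settings tried the adjusted p of Cyp51 in edgeR, DESeq2 or limma ran from 0.054 to 0.647.

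Sc5d, the sterol desaturase near the end of the pathway, was 46.6, 38.0, 32.9 and 58.0 CPM in control mice and 46.4, 54.4, 60.05 and 41.0 CPM in CSF1 OE mice (log2 fold change 0.20, SE 0.19). Hsd17b7, a ketosterol reductase, was 14.6, 12.2, 13.4 and 24.5 CPM in control mice and 18.6, 20.6, 22.4 and 13.4 CPM in CSF1 OE mice (0.21, SE 0.25). In Hsd17b7 the CSF1 OE mice other than 2019 lay above the controls other than 1934, which was the highest of all 8.

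Fdft1, the squalene synthase that commits farnesyl diphosphate to sterols, was 33.3, 30.4, 26.8 and 48.4 CPM in control mice and 28.4, 36.2, 35.3 and 20.8 CPM in CSF1 OE mice, giving a log2 fold change of -0.20 (SE 0.22). It shares 774 exon bases, 18.3% of its exon length, with Ctsb on the opposite strand, so that reads of the 2 genes cannot be told apart there. Sqle, the squalene epoxidase, was 48.6, 37.8, 45.6 and 72.9 CPM in control mice and 45.2, 55.6, 62.2 and 30.9 CPM in CSF1 OE mice (-0.08, SE 0.25). Its level in mouse 1934 was 2.36 times that in mouse 2019. Lss, the lanosterol synthase, had a log2 fold change of 0.0052, Nsdhl of 0.03, Tm7sf2 (a sterol reductase) of -0.04 and Dhcr7 (which reduces the last double bond on the way to cholesterol) of -0.02. In each of these the mice 1934 and 2019 were again the highest control and the lowest CSF1 OE mouse. Tm7sf2 shares 12.1% of its exon bases with Vps51 on the same strand.

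Ebp, the sterol isomerase, stood apart from its neighbours in the pathway. Its CPM was between 31.9 and 39.8 in control mice, with mouse 1934 the lowest of all 8, and between 34.5 and 42.7 in CSF1 OE mice, with mouse 2019 the highest. Its log2 fold change was 0.08 (95% interval -0.15 to 0.32).

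As a group the regulators differed less from mouse to mouse than the enzymes, but gene by gene the ranges overlapped. The SD of the mean log2 CPM of a group between mice of 1 genotype was 0.10 for the regulators, 0.28 for the isoprenoid genes, and 0.27 both for the genes from squalene to cholesterol and for the fatty acid genes. A group's mean varies less where its members move in opposite directions, as Insig1 and Insig2 did. For single genes the SD of log2 CPM between mice of 1 genotype had a median of 0.21 for the regulators (0.11 to 0.31), 0.32 for the isoprenoid genes (0.20 to 0.44), 0.31 for the genes from squalene to cholesterol (0.14 to 0.46) and 0.28 for the fatty acid genes (0.12 to 0.59). Srebf2, which encodes SREBP-2, the main driver of sterol synthesis genes, was 146, 116, 105 and 133 CPM in control mice and 146, 144, 150.2 and 107 CPM in CSF1 OE mice (log2 fold change 0.13, SE 0.14). Srebf1, which encodes the SREBP-1 forms that drive fatty acid synthesis genes, was 84.0, 78.4, 69.8 and 75.6 CPM in control mice and 73.3, 108, 79.9 and 65.8 CPM in CSF1 OE mice (0.09, SE 0.15). Neither showed a difference beyond the spread between mice, and the processing of their proteins is not seen in RNA. Scap was 79.3, 85.0, 73.6 and 68.4 CPM in control mice and 74.7, 66.0, 67.3 and 70.0 CPM in CSF1 OE mice (-0.14, SE 0.09; adjusted p = 0.447 by edgeR).

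Insig1 and Insig2, which both retain SCAP, had differences of opposite sign, and neither was called. For Insig1 the genotype means differed by 31.1 CPM, slightly more than the pooled SD of 29.1 CPM between mice of the same genotype. For Insig2 they differed by -3.67 CPM, less in size than the SD of 4.46 CPM. Insig1, itself a target of SREBPs, was 212, 180.4, 161 and 205 CPM in control mice and 188, 238, 260.2 and 197 CPM in CSF1 OE mice (log2 fold change 0.22, SE 0.13; adjusted p = 0.438 by edgeR). Insig2 was 32.4, 36.0, 34.0 and 29.0 CPM in control mice and 30.5, 24.1, 25.7 and 36.5 CPM in CSF1 OE mice (-0.17, SE 0.14; adjusted p = 0.574 by edgeR). In Insig2 mouse 2019 was the highest of all 8 and mice 1932 and 1936 lay below every control. Stard4, which carries sterol through the cytosol, had a log2 fold change of 0.08 (SE 0.19) and, of the 6 genes in this group, was the one in which mouse 1934 was the highest control and mouse 2019 the lowest CSF1 OE mouse.

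Acly was the one gene of the 33 whose genotypes did not overlap, which 10.3% of all genes tested also showed. The enzyme splits cytosolic citrate into the acetyl-CoA from which both sterols and fatty acids are made. Its CPM was 289.5, 261, 237 and 238 in control mice and 329, 291, 311 and 346 in CSF1 OE mice. The lowest CSF1 OE mouse was less than 1% above the highest control, and mouse 2019, the lowest CSF1 OE mouse for most enzymes, was the highest for Acly. The means were 256 ± 24.5 and 319 ± 23.5 CPM (SD, n = 4 each), a log2 fold change of 0.32 (SE 0.10; 95% interval 0.10 to 0.53) with an unadjusted p of 0.0095 and an adjusted p of 0.162 by edgeR's quasi-likelihood test. It thus did not pass the test. DESeq2 gave it an adjusted p of 0.032 at a log2 fold change of 0.32, below the fold limit, where 4.69% of all genes in that fit had an adjusted p under 0.05. Its log2 fold change lay between 0.25 and 0.39 in all other settings, and its adjusted p between 0.032 and 0.376.

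**Figure D2:**
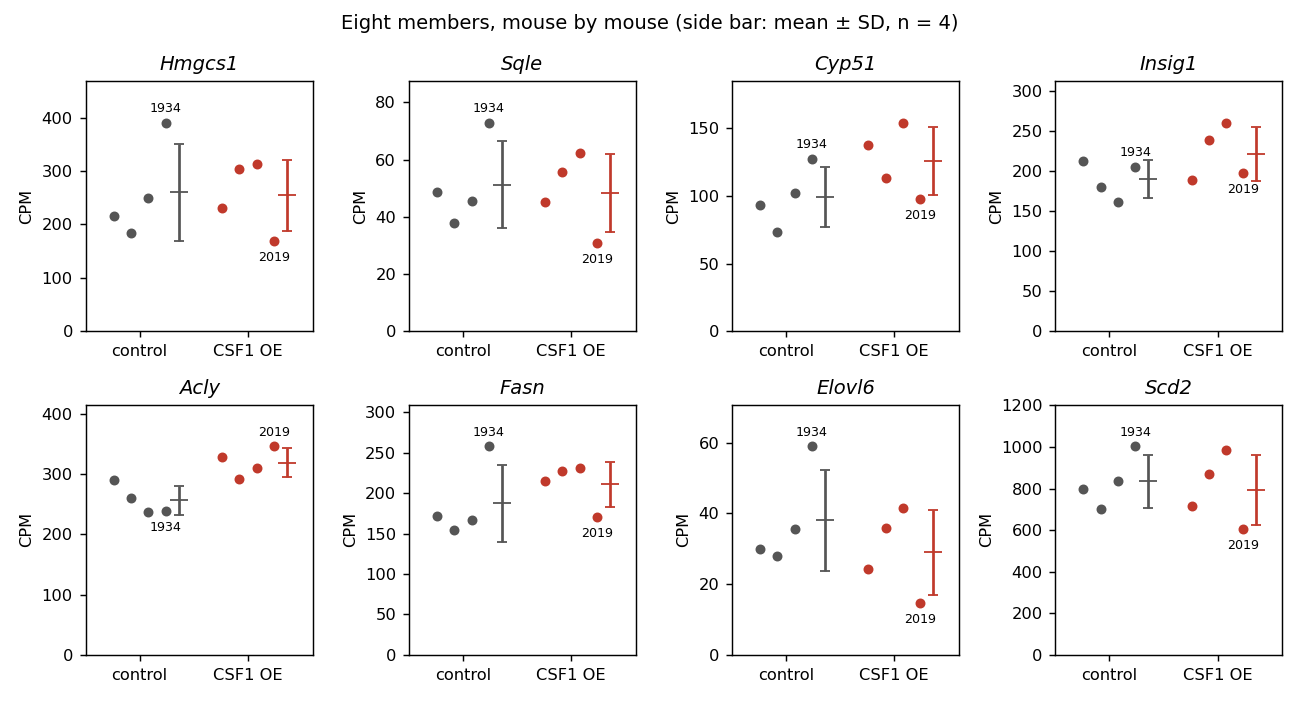
CPM of 8 of the genes in each mouse (points; grey control, red CSF1 OE; mice 1934 and 2019 are labelled), with the mean and SD of the 4 mice at the side; axes start at 0. The genotypes overlap in 7 of the 8 panels, and in Acly the CSF1 OE mice lie above the controls.

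The other genes of fatty acid synthesis did not share this order. Acaca, the acetyl-CoA carboxylase that makes malonyl-CoA, was 48.7, 40.8, 43.4 and 69.5 CPM in control mice and 53.1, 62.1, 63.2 and 45.1 CPM in CSF1 OE mice (log2 fold change 0.14, SE 0.18). Fasn, which builds palmitate, was 172, 154, 167 and 258 CPM in control mice and 215, 228, 231 and 170.5 CPM in CSF1 OE mice (0.17, SE 0.17). In both, 3 CSF1 OE mice lay above 3 controls, and the remaining control, 1934, was the highest of all 8 while the remaining CSF1 OE mouse, 2019, lay among the controls.

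Elovl6, which lengthens palmitate, had the largest difference in size of the 33 and the least certain. It was 29.8, 27.9, 35.6 and 58.9 CPM in control mice and 24.3, 35.9, 41.5 and 14.6 CPM in CSF1 OE mice, with a log2 fold change of -0.39 (SE 0.34; adjusted p = 0.599 by edgeR). Mouse 1934 had 4.03 times the level of mouse 2019. Scd2 was 799, 699.9, 837 and 1003 CPM in control mice and 714, 868, 985 and 606 CPM in CSF1 OE mice (-0.07, SE 0.17). Scd1 ranged from 16.9 to 27.9 CPM in control mice and from 15.4 to 38.4 CPM in CSF1 OE mice (0.21, SE 0.30).

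Among the enzymes of polyunsaturated fatty acids, the desaturases Fads1 and Fads2 behaved differently between mice. Fads2, the first desaturase of that route, was 31.7 CPM in mouse 1934 and 11.2 CPM in mouse 2019, while the other mice ranged from 20.1 to 33.9 CPM (log2 fold change 0.02, SE 0.30). Fads1, which acts after it, was between 158 and 212 CPM in the 8 mice, with mouse 1934 the lowest (0.06, SE 0.11). Elovl5, the elongase that acts between them, had a log2 fold change of 0.01 (SE 0.13).

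In 29 of the 33 genes the difference between the genotype means was smaller than the SD between mice of 1 genotype (pooled over both genotypes, in CPM), the other 4 being Cyp51, Scap, Insig1 and Acly. The share of all genes for which this holds is not given here, so the count does not set these 33 apart. That SD describes single mice and is larger than the SE of a difference between means of 4 mice. Many of the 33 genes shared the same spread between mice. In 24 of the 33, mouse 1934 was the highest control and mouse 2019 the lowest CSF1 OE mouse, an arrangement found in 22.9% of all genes tested. By group it held for 7 of 8 isoprenoid genes, 9 of 10 genes from squalene to cholesterol, 1 of 6 regulators and 7 of 9 fatty acid genes. The exceptions were Ggps1, Ebp, Srebf1, Srebf2, Scap, Insig1, Insig2, Acly and Fads1. This pattern was noticed in the data and is given as a description, without a test.

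**Figure D3:**
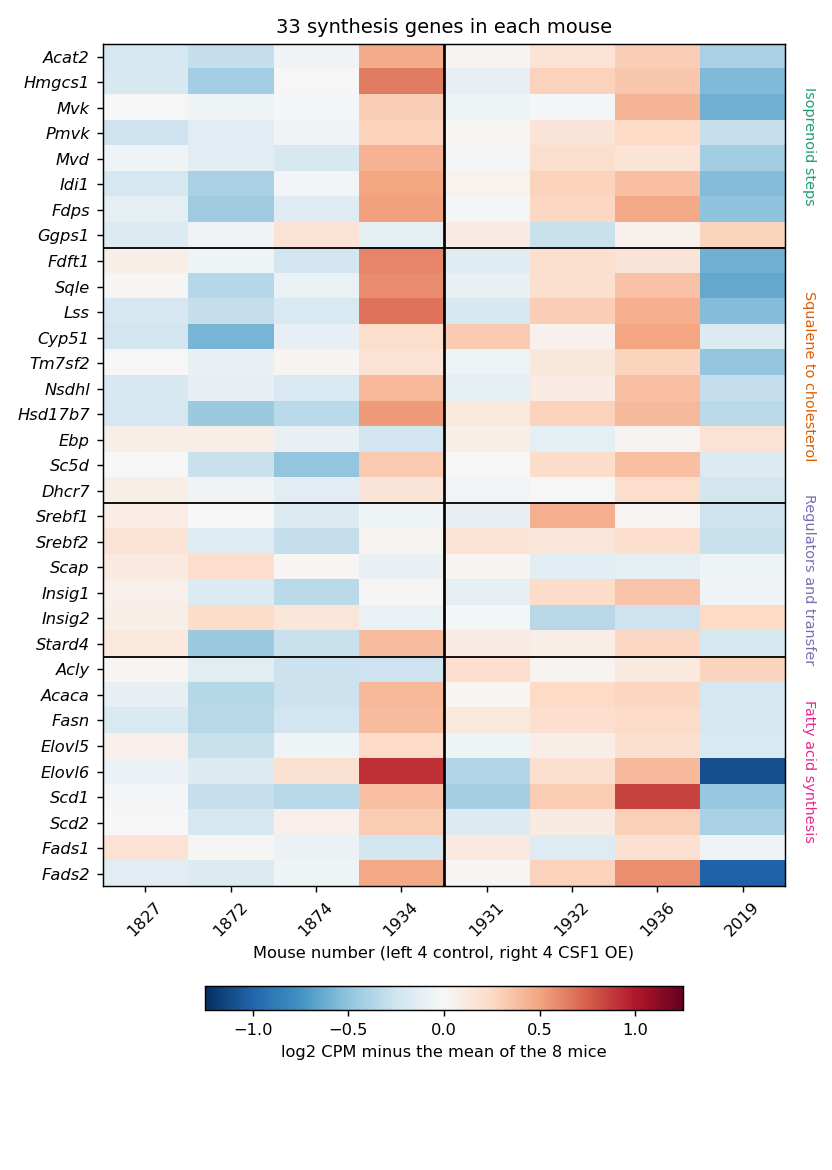
Heat map of the 33 genes (rows, grouped by role) in the 8 mice (columns; left of the black line control, right CSF1 OE), coloured by log2 CPM minus the mean of the 8 mice, red above and blue below it. The columns of control mouse 1934 and CSF1 OE mouse 1936 are red and that of CSF1 OE mouse 2019 is blue in most rows, while Ggps1, Ebp, Insig2 and Acly are red in mouse 2019.

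Summed over a group, the isoprenoid genes came to 425, 378, 475 and 701 CPM in control mice 1827, 1872, 1874 and 1934, and to 469, 568, 607 and 350.2 CPM in CSF1 OE mice 1931, 1932, 1936 and 2019. Genes from squalene to cholesterol came to 372, 323, 347 and 495 CPM in control and 409, 425, 499 and 325 CPM in CSF1 OE mice. The fatty acid genes came to 1679, 1476, 1615 and 1943 CPM in control and 1657, 1794, 2012 and 1462 CPM in CSF1 OE mice. In all 3 sums mouse 2019 was the lowest CSF1 OE mouse and mouse 1934 the highest control. The regulators, at 487 to 610.2 CPM in control and 520.4 to 645 CPM in CSF1 OE mice, varied least, and mouse 1827 was their highest control.

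Markers of other brain cells moved with these sums. The 9 oligodendrocyte markers (Mbp, Mog and others) came to 1600.4, 1559.97, 2372 and 3083 CPM in control mice and 1654, 2015, 3054 and 883 CPM in CSF1 OE mice, again highest in mouse 1934 and lowest in mouse 2019. None of the 9 was at 0 in any library, and 8 of 9 had mouse 1934 as the highest control and mouse 2019 as the lowest CSF1 OE mouse. The 6 markers of oligodendrocyte precursors all had this arrangement, with sums of 146 to 285 CPM in control and 80.3 to 305 CPM in CSF1 OE mice. The sums of 9 astrocyte markers (399.6 to 756 and 334 to 772 CPM), 6 endothelial markers (552 to 944 and 268 to 643 CPM) and 6 neuronal markers (81.1 to 301 and 41.2 to 192 CPM, control and CSF1 OE in that order) were likewise highest among controls in mouse 1934 and lowest among CSF1 OE mice in mouse 2019. The neuronal sum was highest among CSF1 OE mice in mouse 1932, unlike the synthesis sums, which were highest there in mouse 1936. Gene by gene the arrangement held for 6 of 9 astrocyte, 4 of 6 endothelial and 4 of 6 neuronal markers. The 10 microglia markers ran the other way, at 38131, 38599, 33623 and 22183 CPM in control and 32062, 28956, 28583 and 39763 CPM in CSF1 OE mice. Border macrophage markers were between 1461 and 2331 CPM in control and between 1185 and 1778 CPM in CSF1 OE mice, and immediate early genes between 7672 and 13047 CPM and between 7691 and 11092 CPM, neither with the arrangement of the synthesis genes. The part of other cells' RNA in the spread of the synthesis genes was not tested.

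**Figure D4:**
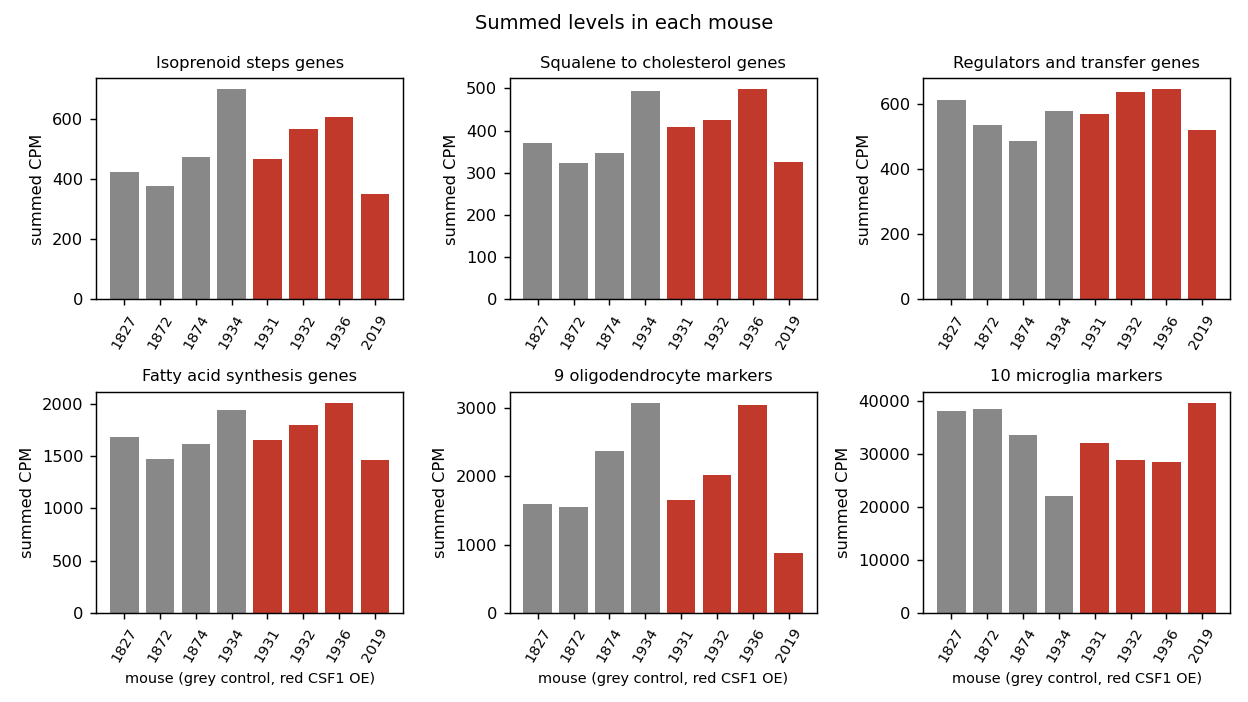
Summed CPM in each mouse (bars; grey control, red CSF1 OE; each axis starts at 0) for the 4 groups of synthesis genes and for 9 oligodendrocyte and 10 microglia markers. The isoprenoid, sterol and fatty acid sums and the oligodendrocyte sum are high in mice 1934 and 1936 and low in mouse 2019, while the microglia sum is lowest in mouse 1934 and highest in mouse 2019.

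The direction of the genotype difference depended on which mice were used and on the terms in the fit. Leaving out mouse 1934 or 2019 kept most of the genes higher in CSF1 OE mice, with 30 of 33 (50.0% of all genes) and 29 of 33 (44.7% of all genes). Leaving out mouse 1936, a CSF1 OE mouse, or 1872, a control, left fewer than before, with 13 of 33 (47.6% of all genes) and 15 of 33 (46.4% of all genes). Without mouse 1827 the count was 17 (45.9% of all genes), without 1874 it was 18 (45.4%), without 1931 it was 23 (45.6%) and without 1932 it was 18 (45.4%). With the mean log2 CPM of the oligodendrocyte and precursor markers as a covariate, 29 of the 33 genes were higher in CSF1 OE mice (46.5% of all genes were), 8 had an unadjusted p under 0.05 (22.5% of all genes), and none was called. Those 8 were Acat2, Acly, Cyp51, Fasn, Fdps, Hsd17b7 and Idi1, which were higher, and Insig2, which was lower. Their number is near the share of all genes and does not set these genes apart. The covariate itself was highest in mouse 1934 (6.58) and lowest in mouse 2019 (4.81). Without mouse 1934, Cyp51, Hsd17b7, Sc5d, Acly, Acaca and Fasn had an unadjusted p under 0.05 (6 of 33, 15.7% of all genes). None was called there either, and this count too is near the share of all genes.

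With mice 1934 and 2019 both left out, a choice made once the data were known, 29 of 33 genes were higher (50.8% of all genes) and 14 had an unadjusted p under 0.05 (21.3% of all genes). None was called, and Fasn alone had an adjusted p under 0.05 (0.0488 by edgeR, 3 mice against 3, log2 fold change 0.46, below the fold limit). Leaving out the highest control and the lowest CSF1 OE mouse raises the difference of every gene with that arrangement by construction.

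The opposite came of a term for the animal numbers. Mice 1931 to 1936 (1 control, 3 CSF1 OE) and the other 4 (3 control, 1 CSF1 OE) were set apart by number, a grouping that the labels do not call a batch and that overlaps with genotype. In that fit 27 of the 33 genes were lower in CSF1 OE mice (49.7% of all genes), 10 had an unadjusted p under 0.05 (32.6% of all genes), and 2 were called (9.50% of all genes), Fdft1 at a log2 fold change of -0.54 (SE 0.12; adjusted p = 0.033 by edgeR) and Elovl6 at -0.93 (SE 0.20; adjusted p = 0.028 by edgeR). Acly was higher in this fit too, at 0.39 (SE 0.10, adjusted p = 0.037 by edgeR), below the fold limit. Neither the 10 genes nor the 2 called exceed the share of all genes, so these counts do not set the 33 apart. Within the range 1931 to 1936 the single control 1934 lay above all 3 CSF1 OE mice in 17 of 33 genes (33.7% of all genes), and within the other range the single CSF1 OE mouse 2019 lay below all 3 controls in 19 of 33 (36.5%). With 1 mouse on a side in each range, mouse, range and genotype cannot be told apart.

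The same pathways contain genes outside the 33, of which 61 were tested and none was called by edgeR with genotype as the only term and all 8 mice. Of 6 further genes of sterol and isoprenoid synthesis that were tested, 4 were higher and 2 lower in CSF1 OE mice, with a median log2 fold change of 0.11. Acat1, the mitochondrial acetoacetyl-CoA thiolase, was 62.9, 57.3, 63.1 and 68.4 CPM in control and 71.0, 77.3, 77.2 and 72.1 CPM in CSF1 OE mice (0.24, SE 0.08; adjusted p = 0.174 by edgeR), and its genotypes did not overlap. Nus1, a subunit of the enzyme that makes dolichol precursors, had a log2 fold change of 0.19. Lbr, a nuclear envelope protein with sterol reductase activity, had one of -0.11 and was lower in every CSF1 OE mouse than in any control. Of the 6 genes, 1 was thus higher without overlap (Acat1) and 1 lower (Lbr), where 10.3% of all genes tested did not overlap.

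The 10 genes of SREBP processing and of SCAP and INSIG turnover had 6 members higher and 4 lower in CSF1 OE mice and none at an unadjusted p under 0.05, where 16.5% of all genes had one, so that 0 of 10 does not set them apart. The largest difference was that of Erlin1, an endoplasmic reticulum protein linked to the turnover of sterol regulators, at 0.13, and its 95% interval of -0.31 to 0.58 reaches past the upper fold limit. The lowest p belonged to Mbtps1, the protease that makes the first cut in SREBPs, at a log2 fold change of -0.09 (SE 0.07), to Sec23a, a coat protein of the vesicles that carry SCAP, at -0.12 (SE 0.09), and to Rnf145, a ubiquitin ligase, at 0.09 (SE 0.08). Their sum was 822 to 928 CPM in control and 875 to 979.7 CPM in CSF1 OE mice.

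Among 15 genes of sterol sensing, efflux and storage, 10 were higher and 5 lower. Npc2, which hands cholesterol out of the lysosome, was 493, 537, 469 and 413 CPM in control and 788, 629.6, 731 and 736 CPM in CSF1 OE mice, above every control in each, at a log2 fold change of 0.59 (SE 0.11; adjusted p = 0.056 by edgeR). Apoe, the main lipid carrier of the brain, was 2100.3, 2693, 2543 and 1994 CPM in control and 3815, 3157, 3017 and 3402 CPM in CSF1 OE mice, also without overlap (0.52, SE 0.15; adjusted p = 0.141 by edgeR). Lcat, which esterifies cholesterol in lipoproteins, was 3.70, 5.19, 6.12 and 4.91 CPM in control and 3.53, 1.98, 2.32 and 2.92 CPM in CSF1 OE mice (-0.89, SE 0.25, adjusted p = 0.143 by edgeR). Without overlap between genotypes there were 2 higher genes of the 15 (Npc2 and Apoe) and 1 lower (Lcat), where 10.3% of all genes tested did not overlap. Other fits called some of these. DESeq2 called all 3 (2.56% of all genes in that fit), with adjusted p of 2.44e-05 for Npc2, 0.0049 for Apoe and 0.032 for Lcat. In edgeR, Npc2 was called with the oligodendrocyte covariate (adjusted p = 0.037), as were 2.08% of all genes. With the term for animal numbers edgeR called Npc2 (adjusted p = 0.025) and Apoe (0.039), and 9.50% of all genes. None of these 15 genes had the arrangement of mice 1934 and 2019 that 24 of the 33 synthesis genes had.

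Of 30 further genes of fatty acid synthesis and activation, 15 were higher and 15 lower, with a median log2 fold change of -0.02. Hsd17b12, a reductase of the elongation cycle, was 114, 100.01, 102 and 104 CPM in control and 138, 123, 137 and 115 CPM in CSF1 OE mice (0.29, SE 0.09; adjusted p = 0.152 by edgeR). The acyl-CoA synthetases Acsl4 (0.31, SE 0.10) and Acsl5 (0.29, SE 0.10) followed, with adjusted p of 0.196 and 0.225 by edgeR. Hsd17b12 and Acsl4 were the 2 of the 30 whose genotypes did not overlap, against 10.3% of all genes tested. In 11 of the 30 mouse 1934 was the highest control and mouse 2019 the lowest CSF1 OE mouse.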

How the data were processed

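CD11b+ cells of 4 CSF1 OE mice and 4 controls were sequenced, 1 library per mouse. Per the labels, the authors used bcl2fastq 1.8.4, mapped reads with Bowtie 1.0.0 (build mm10) and estimated expected counts per gene with RSEM 1.2.7, without normalization. The annotation is not given in the sources used here. A second deposited table holds the same libraries after scaling by the authors (a signal with the range of counts) and entered only the limma fit. 0 columns were left unmapped. Libraries were assigned to genotypes by the titles and strain labels. Nothing states litters. The tests took the mice as independent, which could not be checked.

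Expected counts were rounded and fitted over all genes in R 4.3.3 with edgeR 4.0.16 (TMM, filterByExpr, glmQLFit, glmQLFTest), with Benjamini-Hochberg adjustment over the 13407 genes tested. The study's EBSeq was not run. Intervals are 95% intervals of the log2 fold change from the same fit. CPM used TMM-scaled library sizes, and log2 CPM used a prior count of 2. A count of 0 allows up to 3 counts, from 0.194 to 0.249 CPM, for counting error only. Levels per length used exon unions of GENCODE M21. The common biological coefficient of variation was 0.228. The fits were checked on simulated data.

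The alternatives were DESeq2 1.42.0, upper-quartile factors, a filter of any count, a filter of 10 or more counts in each library, limma 3.58.1 on log2 of the normalized values with a pseudocount of 1, the term for animal numbers, the oligodendrocyte lineage covariate, any fold, and each mouse left out. Leaving out mice 1934 and 2019 together was chosen after seeing the data. The members and lists were chosen with earlier results of these data known. Every member is named. Values in every mouse are given for the 4 members of each group with the lowest p and for Srebf1, Srebf2, Scap, Insig1 and Insig2, and otherwise where chosen after the values were seen, and the 3 genes with the lowest p are named from each related list. Paralogs were compared by shared words of their longest transcripts in place of the planned protein alignment. Of 70 listed related genes 61 were tested, 4 fell below the filter and 5 were not analysed here. Apart from these, some genes first planned for the lists are not reported here.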

Additional observations from a re-analysis of the deposited data

Results flagged for a closer look

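In 5 of 76 sets of 4 mice (each gene, group sum and the sum of all 33 in each genotype) the gap between the highest or lowest mouse and its neighbour exceeded Dixon's 95% critical share of the range, where chance gives about 1 in 20. In 4 of them control mouse 1934 stood above the other controls, with 18.6 CPM for Mvk, 51.0 CPM for Lss, 26.4 CPM for Nsdhl and 31.7 CPM for Fads2. In the other, CSF1 OE mouse 2019 stood below the other CSF1 OE mice, with 107 CPM for Srebf2. The same mice had the highest and the lowest sums of oligodendrocyte markers of their genotypes, at 3083 and 883 CPM, and the part of that RNA in these values was not tested.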

How the results depend on the processing

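No member was called under DESeq2, upper-quartile factors, either count filter, limma, the oligodendrocyte covariate, any fold, any single mouse left out, or with mice 1934 and 2019 both left out; with the term for animal numbers 2 were. No paired analysis was made, because the labels give neither litters nor pairs of mice. Genes called among all tested numbered 430 with DESeq2, 105 with limma, 19 with upper-quartile factors, 279 with the covariate, 1274 with the number term, 166 without both mice and 3 to 164 with single mice left out (main 59). Related genes called, of 61, numbered 3 with DESeq2 (Npc2, Apoe, Lcat), 1 with limma (Npc2), 1 with the covariate (Npc2) and 5 with the number term (Npc2, Apoe, Acacb, Acsl3, Elovl2), against 0. Of all genes, 2.56% were called with DESeq2, 2.08% with the covariate and 9.50% with the number term. The 5 of 61 with the number term do not exceed that share and do not set the related genes apart. Members at an unadjusted p under 0.05 numbered 8 with the covariate, 10 with the number term, 14 without both mice and 1 to 6 with single mice left out, against 1, and members higher in CSF1 OE 6 with the number term and 13 to 30 with single mice left out, against 22. The member median was 0.30 without both mice, -0.14 with the number term and -0.052 to 0.20 with single mice left out, against 0.06. Without both mice the group medians were 0.31 (squalene to cholesterol) and 0.22 (regulators). With the number term they were -0.28 (isoprenoid), -0.18 (squalene to cholesterol), -0.019 (regulators) and -0.14 (fatty acid), each above 0 without it.

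Signs of uncalled log2 fold changes turned as follows. With at least 10 counts Lss was -0.0036, with limma Fads2 -0.061, and with upper-quartile factors Lss -0.019 and Elovl5 -0.012. With the covariate Hmgcs1 was 0.23, Mvk 0.066, Mvd 0.12, Sqle 0.14, Tm7sf2 0.083, Dhcr7 0.043 and Scd2 0.070. Without both mice Hmgcs1 was 0.39, Mvk 0.17, Mvd 0.26, Ggps1 -0.015, Fdft1 0.15, Sqle 0.31, Tm7sf2 0.15, Ebp -0.016, Dhcr7 0.10, Elovl6 0.13 and Scd2 0.14. With the number term Acat2 was -0.26, Pmvk -0.15, Idi1 -0.29, Fdps -0.26, Lss -0.39, Nsdhl -0.21, Hsd17b7 -0.14, Sc5d -0.026, Srebf1 -0.013, Srebf2 -0.025, Stard4 -0.14, Acaca -0.10, Fasn -0.074, Elovl5 -0.14, Scd1 -0.15, Fads2 -0.50 and Csf1 -0.23. With single mice left out the ranges that crossed 0 were Acat2 -0.053 to 0.25, Csf1 -0.033 to 0.40, Dhcr7 -0.10 to 0.046, Elovl5 -0.071 to 0.11, Fads2 -0.19 to 0.26, Fdft1 -0.31 to 0.012, Fdps -0.042 to 0.34, Hmgcs1 -0.16 to 0.24, Idi1 -0.026 to 0.30, Lss -0.15 to 0.30, Mvd -0.10 to 0.15, Mvk -0.26 to 0.071, Nsdhl -0.093 to 0.21, Pmvk -0.0015 to 0.20, Scd1 -0.10 to 0.39, Scd2 -0.19 to 0.037, Sqle -0.22 to 0.15, Srebf1 -0.074 to 0.18, Stard4 -0.040 to 0.26 and Tm7sf2 -0.14 to 0.092. The causes of these changes were not tested.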
